A study of Mus musculus with 9 samples.

Results

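Fatty acid oxidation was followed through 34 genes of its mitochondrial and peroxisomal routes in mouse brown adipose tissue. The genes were taken by exact symbol from a list, and all 34 were found among the 24356 gene symbols of the files. All 34 had a value above 0 in all 9 libraries and so entered the test, which covered 14675 genes. The libraries came from GHRH-KO mice, which lack growth hormone releasing hormone, and from littermate WT controls, all of a mixed C57BL6 and 129SV background, kept in standard housing with free access to chow. There were 2 KO females, 2 KO males, 3 WT females and 2 WT males, and their ages are not given in the sources used here. The knockout is present in every cell of the body, so a difference in brown fat need not start there. Values are FPKM, read pairs corrected for the length of the transcript and the size of the library, so levels can be compared between genes per unit of length.

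Brown adipose tissue burns fatty acids to make heat. Long-chain fatty acids are joined to coenzyme A by acyl-CoA synthetases, carried into mitochondria as carnitine esters by the carnitine shuttle, and shortened step by step by a cycle of dehydrogenation, hydration, dehydrogenation and thiolysis. Electrons from the first step pass through the electron transfer flavoprotein to the respiratory chain. Peroxisomes shorten very long and branched chains with a separate set of enzymes, and many genes of both routes are known targets of the nuclear receptor PPAR alpha.

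Before the gene results, 3 facts about the libraries bear on them. Ghrh itself was listed at 0 in the 5 WT libraries, while the libraries labelled KO held 0.846 and 0.233 FPKM (females) and 0.799 and 0.470 FPKM (males). The values above 0 thus lie in the libraries labelled KO. Whether these reads come from the targeted allele or the labels are affected was not tested. Directions below take the labels as given. The library of KO male 1 stood apart: its rank correlation with the other 8 was 0.924 to 0.934, against 0.958 to 0.991 among those 8, and its 10 lymphocyte markers summed to 231.9 FPKM against 1.95 to 5.02 in the others. The summed level of 20 skeletal muscle markers was higher in every KO library (3346 to 14260 FPKM) than in every WT library (557.8 to 2782 FPKM). None of the 20 was at 0, and 12 were each higher in every KO than in every WT library (3.03% of all genes). Averaged over the sexes 4 of the 20 were called higher by limma, where 3.6% of all genes were called in either direction. Brown adipocyte markers (12 genes, none at 0) summed to 6534 to 8480 FPKM in KO and 6224 to 8035 FPKM in WT. Ucp1, the uncoupling protein that defines the tissue, ranged from 1357 to 2992 FPKM. White adipocyte markers summed to 60.3 to 114 FPKM in KO and 103 to 374 FPKM in WT, with Hoxc9, Hoxc10 and Tcf21 of the 11 at 0 in at least 1 library. The part of other cell types in the results below was not tested. In bulk tissue, fewer cells of a type and less RNA per cell cannot be told apart.

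Most of the 34 genes were among the most abundant transcripts of the tissue. Hadhb, the beta subunit of the mitochondrial trifunctional protein, led with a mean of 1481 FPKM over the 9 libraries (lowest 1220, highest 1761). It was followed by Acaa2, the mitochondrial thiolase (1253 FPKM), Acadl and Acadm, the long-chain and medium-chain acyl-CoA dehydrogenases (1183 and 1041 FPKM), Etfb, a subunit of the electron transfer flavoprotein (1139 FPKM), and Ech1, an auxiliary isomerase (1086 FPKM). The ranges of neighbours in this order overlapped. Peroxisomal genes were lower, with Scp2, the carrier and thiolase, at 231.7 FPKM, Hsd17b4, the D-bifunctional protein, at 104 FPKM and Acox3, the oxidase for branched chains, at 10.6 FPKM. Carnitine palmitoyltransferase 1 admits long chains to the mitochondrion, and its muscle form Cpt1b was at 292 FPKM and the liver form Cpt1a at 3.37 FPKM, the lowest of the 34. The ratio of Cpt1b to Cpt1a was 73.5 to 117 in 8 libraries and 38.9 in KO male 1, where Cpt1a was highest, at 5.73 FPKM.

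**Figure D1:**
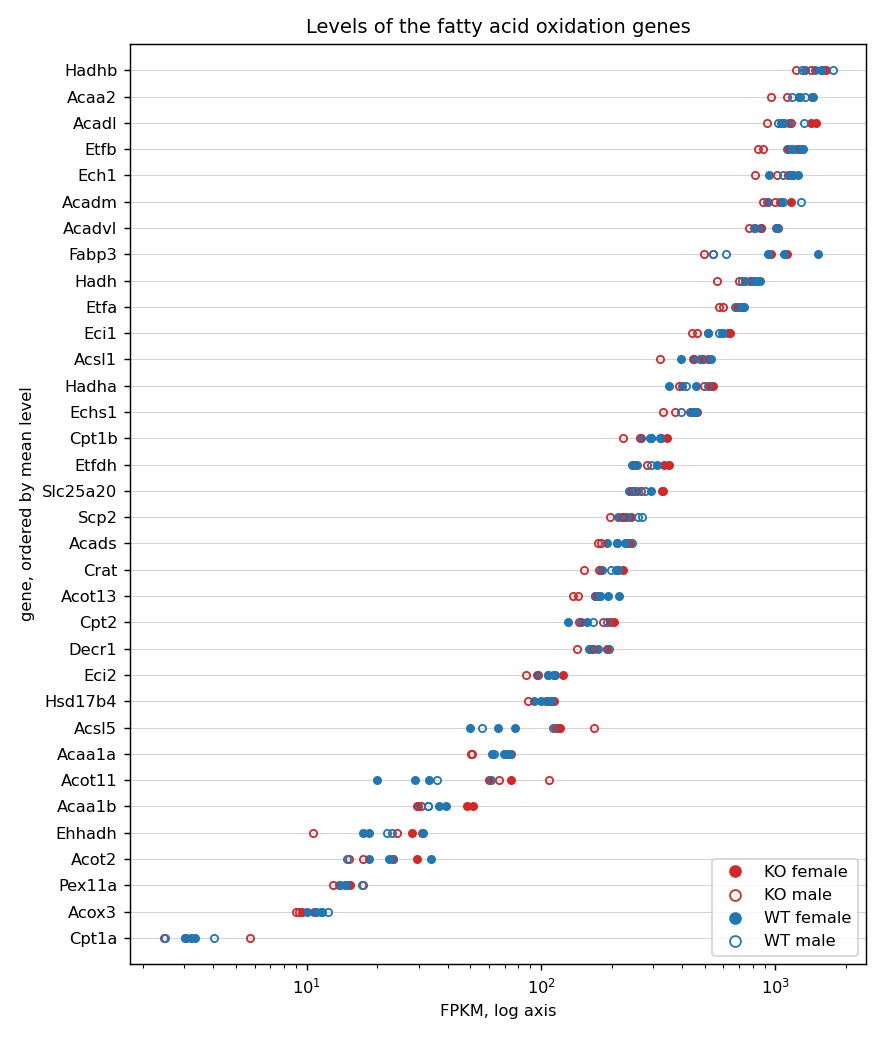
Each row is 1 of the 34 genes, ordered by mean level, and each point is 1 library, with FPKM on a log axis. Red marks KO, blue marks WT, and open points are males. Levels ran from 3.37 FPKM for Cpt1a to 1481 FPKM for Hadhb, and for most genes the 9 libraries lay close together.

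No gene of the 34 passed an adjusted p of 0.05 in any of the 5 comparisons, with limma fitted to log2 FPKM of all tested genes and Benjamini-Hochberg adjustment. The comparisons were KO against WT in females, where 0.0204% of all genes passed, in males (0.0136%), averaged over the sexes (3.6%), the difference between the sexes in the KO effect (0%), and males against females (0.0136%). At an unadjusted p under 0.05, 8 of the 34 were higher and 0 lower in KO females (background 4.95% and 7.73% of all genes), 2 were higher and 12 lower in KO males (4.86% and 11.7%), and 2 were higher and 4 lower averaged over the sexes (5.99% and 14.2%). The KO effect was more negative in males than in females for 12 of 34 at that threshold (background 5.03%). Males against females gave 1 higher and 11 lower (3.36% and 7.09%). An ordinary linear model at an unadjusted p under 0.01 gave 1 member in females (background 3.43%), 4 in males (5.29%), 2 averaged (7.54%), 0 for the interaction (1.66%) and 6 between the sexes (3.14%).

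The direction of the differences split by sex. In females 27 of 34 members were higher in KO by the fitted difference, where 39.8% of all genes were, and the median member difference was 0.15 on the log2 scale, against -0.07 over all genes. In males 31 of 34 were lower, where 60.1% of all genes were, with a median of -0.25 against -0.08 over all genes. Averaged over the sexes the median was -0.06, against -0.07 over all genes. Higher in KO females and lower in KO males were 25 of 34 (73.5%, against 20.9% of all genes), 6 were lower in both sexes, and only Acsl5 and Acot11 were higher in both. Centring each library on its median moved the female median of all genes up by 0.11 and that of the interaction down to -0.12, put 32 of 34 members higher in KO females and made Cpt1a the third member higher in both sexes, and quantile normalization put 25 higher in KO females. The count lower in KO males was 31 under both. Relative to the median of all genes, the member median was 0.22 in females and -0.17 in males as deposited and with median centring, and 0.11 and -0.12 with quantile normalization. The male side leaned on 1 library: without KO male 1, 24 of 34 were lower in KO males, and the member median was -0.15 against -0.22 over all genes, so that members then lay above the typical gene. Members are not replicates, and for no member did the difference between the sexes pass adjustment (lowest adjusted p = 0.624, limma interaction).

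Members were also counted by whether the libraries of the groups overlapped. In females 14 members were above every WT library in both KO libraries (background 13.8% of all genes), and 2, Acot13 and Etfa, were below (26.6%). In males 19 were below both WT libraries in both KO libraries (28.7%), and 2, Acsl5 and Acot11, were above (10.8%). Over all 9 libraries, 1 member, Acsl5, was higher in every KO than in every WT library (3.03%) and 0 were lower (6.04%). The male count depended on 1 library and on scaling. KO male 1 alone was below both WT males for 30 of 34 members, where 37.1% of all genes were, and KO male 2 alone for 20 of 34, where 60.8% of all genes were. With each library centred on its median, 2 members in place of 19 were lower in both KO males (21.7% of all genes), and 18 were higher in both KO females (24.3%). With quantile normalization 13 were lower in both KO males (24.6%) and 11 were higher in both KO females (20.3%).

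**Figure D2:**
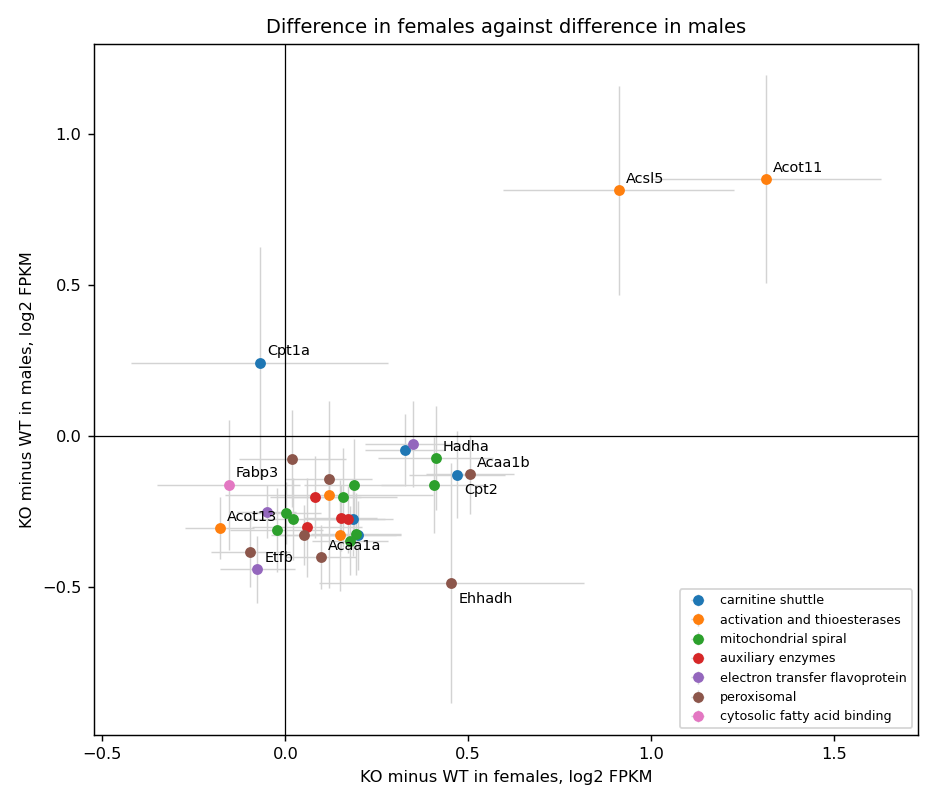
Each point is 1 of the 34 genes, coloured by role, with the KO minus WT difference in log2 FPKM in females on the x axis and in males on the y axis. Grey bars are standard errors from the limma fit. Most genes lie to the right of 0 and below 0, and Acsl5 and Acot11 lie apart at the upper right.

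Acot11 and Acsl5 handle acyl-CoA in opposite directions. Acot11, a thioesterase that splits acyl-CoA into free fatty acid and coenzyme A and is known to be induced by cold in brown fat, was at 60.1 and 74.1 FPKM in KO females, 20.1, 29.0 and 33.3 FPKM in WT females, 66.4 and 108 FPKM in KO males, and 61.2 and 36.1 FPKM in WT males. The gene lies at chr4:106744555-106804998 on the minus strand (GENCODE M21, GRCm38). The groups did not overlap within either sex, and WT male 1 alone lay above a KO library, KO female 1. Means were 77.1 ± 21.2 FPKM in KO (SD, n = 4) and 35.9 ± 15.4 FPKM in WT (SD, n = 5). Averaged over the sexes Acot11 was 2.12-fold higher in KO (log2 difference 1.08, SE 0.23, adjusted p = 0.0503 by limma). In females the log2 difference was 1.31 (SE 0.31, adjusted p = 0.176) and in males 0.85 (SE 0.34, adjusted p = 0.276). It just missed the threshold, and over 17 alternatives fitted with limma its averaged adjusted p ran from 0.0313 to 0.16, under 0.05 in 4 of them. None of the 50-base stretches of its transcripts occur in another gene.

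Acsl5, a synthetase that joins long-chain fatty acids to coenzyme A, was at 121 and 117 FPKM in KO females, 49.7, 77.7 and 65.2 FPKM in WT females, 115 and 169 FPKM in KO males, and 112 and 55.8 FPKM in WT males. The gene lies at chr19:55251938-55297720 on the plus strand. Every KO library lay above every WT library, by a small margin over WT male 1. Means were 130.2 ± 25.8 FPKM in KO (SD, n = 4) and 72.2 ± 24.9 FPKM in WT (SD, n = 5). Averaged over the sexes Acsl5 was 1.82-fold higher (log2 difference 0.86, SE 0.23, adjusted p = 0.0858 by limma), with 0.91 in females and 0.81 in males. Its adjusted p was 0.0250 without WT male 1, the lowest of 17 alternatives, and 0.242 in the highest. Acsl1, the most abundant synthetase of the list, did not share this pattern: its log2 difference was 0.15 in females (SE 0.17) and -0.33 in males (SE 0.18).

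The upstream sequence of this pair is shown because they were the only members with higher levels in KO of both sexes. The 250 bases before the annotated start are from RefSeq (build GRCm38.p6), 5′ to 3′ on the strand of the gene, with CG dinucleotides in capitals. For Acot11, which has 2 listed starts, the one printed is at chr4:106805008-106805257 on the minus strand, and for Acsl5 the stretch is chr19:55253119-55253368 on the plus strand. In GENCODE M21 a transcript of Acsl5 begins right after this stretch, while others begin further upstream, so the stretch lies inside the span of the gene given above and between exons of those others.
Acot11: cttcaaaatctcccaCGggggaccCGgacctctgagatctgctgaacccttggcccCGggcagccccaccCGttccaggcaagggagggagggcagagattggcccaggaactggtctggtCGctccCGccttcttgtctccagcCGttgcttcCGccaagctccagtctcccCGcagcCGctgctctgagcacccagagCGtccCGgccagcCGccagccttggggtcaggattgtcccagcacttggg
Acsl5: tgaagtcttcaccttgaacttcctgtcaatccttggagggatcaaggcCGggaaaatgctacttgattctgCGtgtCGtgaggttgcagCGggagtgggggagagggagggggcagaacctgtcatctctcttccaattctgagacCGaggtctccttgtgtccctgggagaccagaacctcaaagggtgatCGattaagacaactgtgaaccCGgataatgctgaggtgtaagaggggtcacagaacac
The Acot11 stretch was 66.4% G and C with 13 CG dinucleotides, and the Acsl5 stretch was 52.8% G and C with 7.

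The carnitine shuttle genes were higher in KO females for 4 of 5 members, where 39.8% of all genes were. In KO males 4 of 5 were lower, where 60.1% of all genes were. Without KO male 1, 3 of 5 were lower in males (median -0.15, against -0.22 over all genes). Cpt2, the inner membrane transferase that releases acyl-CoA inside the mitochondrion, was at 197 and 204 FPKM in KO females and 130, 148 and 158 FPKM in WT females, with no overlap. Its log2 difference in females was 0.47 (SE 0.13, adjusted p = 0.235 by limma). In males it was at 146 and 183 FPKM in KO and 192 and 166 FPKM in WT, with overlap and a log2 difference of -0.13 (SE 0.14). Slc25a20, the carnitine-acylcarnitine carrier, was at 331 and 329 FPKM in KO females against 238 to 295 FPKM in WT females, and did not differ beyond its error in males (log2 difference -0.05, SE 0.12). Crat, carnitine acetyltransferase, was at 213 and 224 FPKM in KO females and 182, 180 and 210 FPKM in WT females, and at 152 and 176 FPKM in KO males and 214 and 199 FPKM in WT males. Its groups did not overlap in either sex and the direction turned, with an interaction of -0.53 (SE 0.15, adjusted p = 0.631 by limma). Cpt1b had a log2 difference of 0.18 in females and -0.28 in males (SE 0.11 and 0.12). Of its 50-base stretches, 78.6% also lie in the readthrough gene Gm44502, which is not among the gene symbols of the files. How its shared reads were counted is unknown. Cpt1a was the only member lower in KO females and higher in KO males, and its level in males rested on KO male 1: without that library its log2 difference in males was -0.37 in place of 0.24.

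The mitochondrial spiral, the cycle proper, held 9 genes. By the fitted difference 8 of 9 were higher in KO females (median log2 difference 0.18, from -0.02 to 0.41), where 39.8% of all genes were. In KO males 9 of 9 were lower (median -0.26, from -0.35 to -0.07), where 60.1% of all genes were. Without KO male 1, 7 of 9 were lower in males, with Hadha and Acadl on the other side. The median of the 9 was then -0.16, above the -0.22 of all genes. With quantile normalization 6 of 9 were higher in females. Hadha, the alpha subunit of the trifunctional protein, which hydrates and dehydrogenates long chains, was at 525 and 543 FPKM in KO females and 353, 400.2 and 460 FPKM in WT females. Acadl was at 1493 and 1420 FPKM in KO females and 1058, 1090 and 1148 FPKM in WT females. Neither gene's groups overlapped in females, and log2 differences were 0.41 for both (SE 0.16 for Hadha, 0.15 for Acadl). In males both overlapped, with -0.07 for Hadha (SE 0.17) and -0.16 for Acadl (SE 0.16). Acads, the short-chain dehydrogenase, had the most negative male difference of the spiral, at 175 and 181 FPKM in KO and 244 and 210.3 FPKM in WT males (log2 difference -0.35, SE 0.11, adjusted p = 0.18 by limma). Acadvl, the very long-chain dehydrogenase, Hadhb, Echs1, the short-chain hydratase, Hadh, the short-chain hydroxyacyl dehydrogenase, and Acaa2 had log2 differences of -0.02 to 0.19 in females and -0.31 to -0.16 in males. Acadm lay at 0.19 in females and -0.33 in males.

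Hadha and Hadhb encode the subunits of 1 complex and are transcribed away from each other. Their RefSeq starts on chromosome 5 lie at 30155180 on the minus strand and 30155253 on the plus strand, with 72 bases between them, which are printed because both genes start from this stretch (chr5:30155181-30155252, GRCm38.p6, plus strand, CG dinucleotides in capitals).
Hadha-Hadhb: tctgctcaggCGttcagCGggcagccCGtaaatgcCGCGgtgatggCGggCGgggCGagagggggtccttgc
It was 70.8% G and C with 8 CG dinucleotides. Although the pair shares this stretch, the ratio of Hadhb to Hadha in FPKM was not fixed. It was 3.04 and 3.04 in KO females, 3.80, 3.69 and 3.40 in WT females, 3.136 and 2.86 in KO males, and 3.42 and 3.135 in WT males. The KO libraries lay at the low end, and only WT male 2 reached them. Of the 50-base stretches of Hadhb, 18.1% also lie in Gm13910. This ratio was chosen after its values were seen.

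The auxiliary enzymes deal with double bonds that the cycle cannot process directly. Eci1 and Eci2, the enoyl-CoA isomerases, Decr1, the dienoyl-CoA reductase, and Ech1 were all higher in KO females (log2 differences 0.06 to 0.17) and all lower in KO males (-0.30 to -0.20). Of all genes, 39.8% were higher in KO females and 60.1% lower in KO males. Without KO male 1 all 4 enzymes stayed lower in males, but their median of -0.17 then lay above that of all genes, -0.22. With quantile normalization Ech1 was lower in females also. Eci1 was at 639 and 626 FPKM in KO females and 599, 518 and 595 FPKM in WT females, and at 439 and 465 FPKM in KO males and 577 and 517 FPKM in WT males, with no overlap in either sex. Decr1 showed less, with log2 differences of 0.08 (SE 0.12) and -0.20 (SE 0.14).

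**Figure D3:**
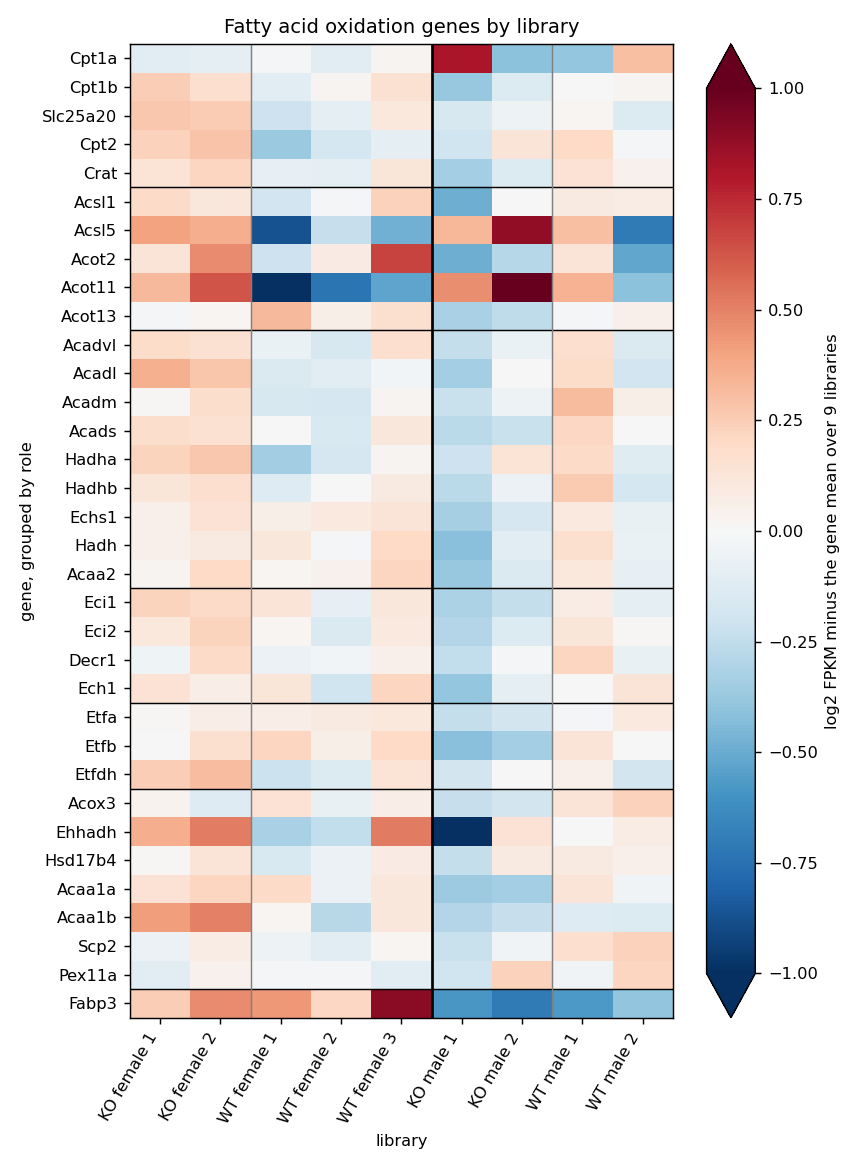
Rows are the 34 genes grouped by role and columns are the 9 libraries, with colour giving log2 FPKM minus the mean of the gene, limited to 1 either way. KO female columns are mostly red, KO male 1 is mostly blue, and Acsl5, Acot11, Cpt1a and Fabp3 depart from the other rows.

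Electron transfer genes differed among themselves. Etfb was at 1129 and 1261 FPKM in KO females, 1311, 1173 and 1293 FPKM in WT females, 845 and 889 FPKM in KO males, and 1230 and 1126 FPKM in WT males. The female groups overlapped and the male groups did not. Etfb had the lowest p of the 34 in males (0.736-fold, log2 difference -0.44, SE 0.11, adjusted p = 0.11 by limma), and averaged over the sexes its log2 difference was -0.26 (SE 0.08, adjusted p = 0.101). The male difference was -0.41 without KO male 1. Of its 50-base stretches, 43.8% lie in Gm45233 as well. Etfa, the other subunit, was lower in KO males too (-0.25, SE 0.09), and Etfdh, which passes the electrons on to ubiquinone, was at 336 and 352 FPKM in KO females against 245, 258 and 313 FPKM in WT females (0.35, SE 0.13) and close to 0 in males (-0.03, SE 0.14).

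Among peroxisomal genes, Acaa1a and Acaa1b, paralogous thiolases that end each peroxisomal cycle, took the lowest p for the difference between the sexes in the KO effect. They lie on chromosome 9, at 119339676 to 119350299 on the plus strand and 119148023 to 119157093 on the minus strand (GENCODE M21). Acaa1b was at 48.3 and 51.3 FPKM in KO females and 36.8, 29.9 and 39.3 FPKM in WT females, and at 29.6 and 30.8 FPKM in KO males and 33.0 and 33.0 FPKM in WT males. It was higher in KO females (1.42-fold, log2 difference 0.51, SE 0.12, adjusted p = 0.174 by limma) and lower in KO males (-0.13, SE 0.13), with an interaction of -0.63 (SE 0.18, adjusted p = 0.624). Acaa1a was at 71.3 and 74.6 FPKM in KO females and 73.5, 62.0 and 69.5 FPKM in WT females, and at 50.1 and 50.8 FPKM in KO males and 70.6 and 62.9 FPKM in WT males. The female groups overlapped. The male groups did not (log2 difference -0.40, SE 0.11, adjusted p = 0.121), and the interaction was -0.50 (SE 0.14, adjusted p = 0.625). Averaged over the genotypes, Acaa1b was lower in males than in females (log2 difference -0.40, SE 0.09, adjusted p = 0.242 by limma). Acaa1a was lower too (-0.28, SE 0.07, adjusted p = 0.274). Most of this lay in KO, where mean Acaa1b was 30.2 FPKM in males and 49.8 FPKM in females, and Acaa1a 50.4 and 72.9 FPKM. In WT the sexes overlapped, with means of 33.0 and 35.3 FPKM for Acaa1b and 66.7 and 68.3 FPKM for Acaa1a.

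A constant factor for each library does not change the ratio of Acaa1a to Acaa1b, though quantile normalization can. As deposited, this ratio was 1.48 and 1.45 in KO females and 1.69 and 1.65 in KO males. In WT it was 2.00, 2.07 and 1.77 in females, and 2.14 and 1.91 in males. Every KO library lay below every WT library. The ratio was chosen after its values were seen, so no test is given. Of the 50-base stretches of Acaa1b, 30.5% occur in Acaa1a, and the counting could split such reads between the paralogs.

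Scp2 was at 221 and 242 FPKM in KO females, 223, 214 and 233 FPKM in WT females, 197 and 225 FPKM in KO males, and 259 and 270.3 FPKM in WT males. Only the male groups were apart (log2 difference -0.33, SE 0.10, adjusted p = 0.157 by limma), and 29.7% of its stretches lie in Scp2-ps2. Acox3 was at 10.8 and 9.59 FPKM in KO females, 11.6, 9.99 and 11.01 FPKM in WT females, 8.96 and 9.27 FPKM in KO males, and 11.5 and 12.3 FPKM in WT males (log2 difference averaged over the sexes -0.24, SE 0.08, adjusted p = 0.148). Ehhadh, the L-bifunctional enzyme, spread more than any other peroxisomal member, from 10.6 FPKM in KO male 1 to 31.3 FPKM in WT female 3. Without KO male 1 its difference in males turned from -0.49 to 0.11. Hsd17b4 and Pex11a, which acts in peroxisome division, had log2 differences between -0.14 and 0.12 in both sexes.

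Acot13, a thioesterase linked to mitochondria, was the thioesterase that went the other way. It was at 170.3 and 174 FPKM in KO females, 216, 179 and 193 FPKM in WT females, 137 and 144 FPKM in KO males, and 170.2 and 178 FPKM in WT males. Within each sex both KO libraries were below every WT library, as they were for 26.6% of all genes in females and 28.7% in males. Averaged over the sexes its log2 difference was -0.24 (SE 0.07, adjusted p = 0.0992 by limma). With median centring this difference was -0.18 (adjusted p = 0.538 by limma). Acot2, a mitochondrial thioesterase, varied from 14.9 to 33.9 FPKM with overlap in both sexes, and 24.5% of its stretches lie in Acot1.

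Fabp3, a cytosolic fatty acid binding protein best known from heart and muscle, was lower in males, though its adjusted p missed the threshold. It did not differ by genotype beyond its error. It was at 960 and 1120 FPKM in KO females and 1090, 934 and 1514 FPKM in WT females, against 539.5 and 495 FPKM in KO males and 543 and 616 FPKM in WT males. Every male library lay below every female library, which no other member showed (background 1.85% of all genes). Means were 548 ± 50.1 FPKM in males (SD, n = 4) and 1123 ± 232 FPKM in females (SD, n = 5), a log2 difference of -1.002 (SE 0.15, unadjusted p = 0.000157, adjusted p = 0.135 by limma). Over 17 alternatives the estimate stayed between -1.08 and -0.90 and the adjusted p ran from 0.0266 to 0.438. The gene lies at chr4:130308595-130315463 on the plus strand. Its KO minus WT difference was -0.16 in both sexes (SE 0.20 and 0.22). Summed muscle markers were higher in every KO library, and the part of muscle in the Fabp3 level was not tested. Of its 774 distinct 50-base stretches, 29.2% lie in Fabp3-ps1.

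**Figure D4:**
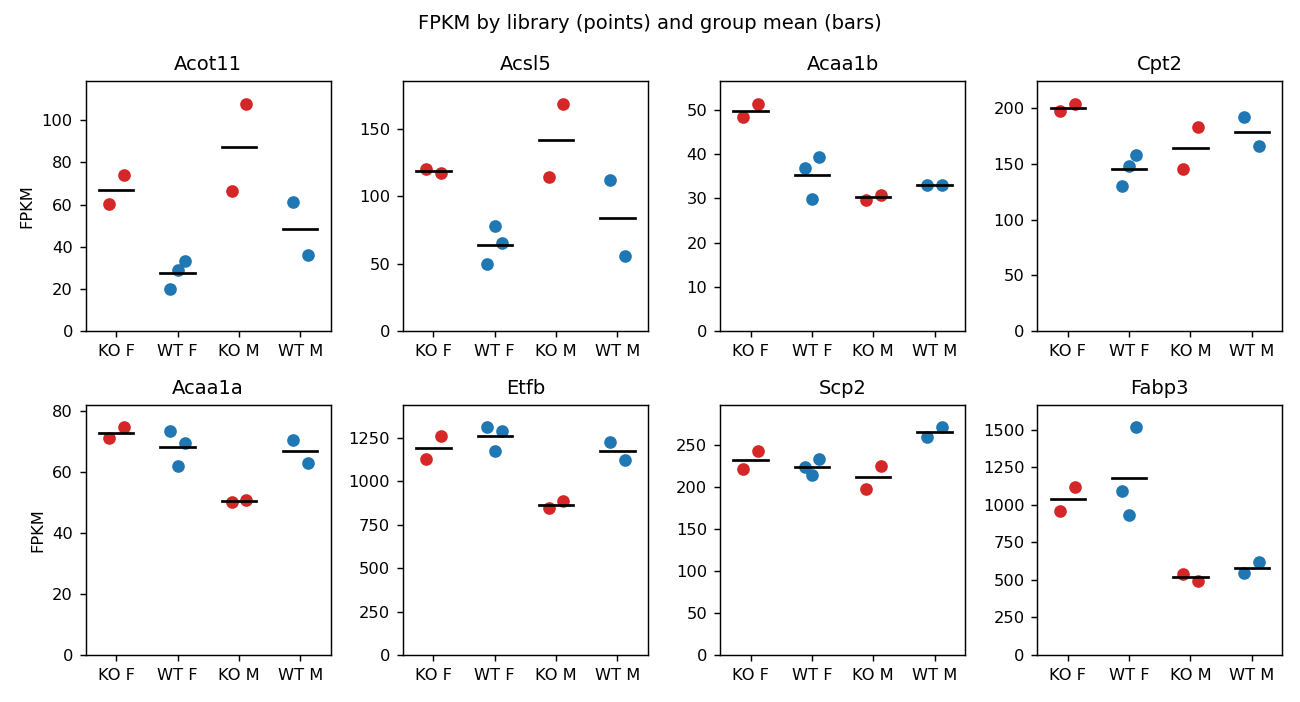
FPKM of 8 genes in each library, shown as points (red KO, blue WT), with group means as bars and axes that start at 0. Acot11 and Acsl5 are higher in KO of both sexes, Acaa1b and Cpt2 are higher in KO females with no overlap, Acaa1a, Etfb and Scp2 are lower in KO males, and Fabp3 is lower in all males.

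Levels of most of the 34 genes followed each other across libraries. The mean of their centred log2 values was 0.14 and 0.21 in KO females, -0.09, -0.09 and 0.12 in WT females, -0.26 and -0.05 in KO males, and 0.08 and -0.06 in WT males. WT female 3 lay close to the KO females, and KO male 1 was lowest. Of 34 members, 26 had a Pearson r above 0.5 with the mean of the other members over the 9 libraries, with Crat at 0.95 and Acadvl at 0.93. Acot11 (0.03), Acsl5 (0.04), Pex11a (0.02) and Cpt1a (-0.64) did not follow. Among genes outside the list, Lman2 (r = 0.973), Emc8 (0.958) and Adtrp (0.956) had the profiles most like that mean. These correlations are over 9 libraries that also share scaling and cell content. The share of all genes with an r above 0.5 to that mean is not given here. The count of 26 therefore cannot be read as particular to the members. The brown adipocyte markers had a like profile, at 0.10 and 0.30 in KO females, -0.24, 0.00 and 0.20 in WT females, -0.45 and -0.04 in KO males, and 0.03 and 0.08 in WT males.

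**Figure D5:**
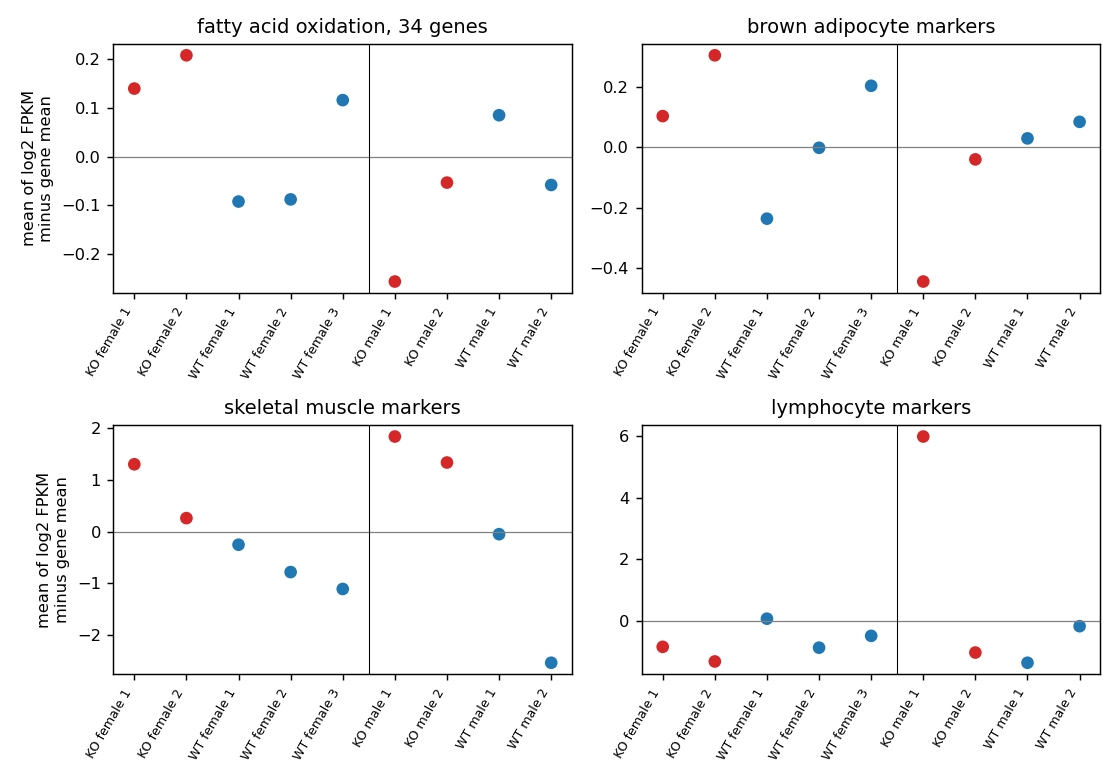
Each panel gives, for 1 gene list, the mean over its genes of log2 FPKM minus the gene mean in each library (red KO, blue WT). The 34 genes and the brown adipocyte markers are lowest in KO male 1, where the lymphocyte markers are far above the other 8 libraries, and muscle markers are high in KO.

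Other genes of the pathway were read from lists, with 95 genes tested. Of 37 other beta oxidation genes, 0 were higher and 4 lower at an adjusted p under 0.05 averaged over the sexes. At that threshold 3.6% of all genes were called, counting both directions together. Phyh, which starts alpha oxidation of phytanic acid in peroxisomes, fell by 0.30 on the log2 scale (SE 0.06, adjusted p = 0.0448 by limma). Acad10 and Acad12, members of the acyl-CoA dehydrogenase family, fell by 0.35 (SE 0.06, adjusted p = 0.0370) and 0.41 (SE 0.07, adjusted p = 0.0347). Eci3, a paralog of Eci2, fell by 0.67 (SE 0.10, adjusted p = 0.0288), from 16.2 to 19.2 FPKM in WT females to 10.7 and 13.7 FPKM in KO females, and from 10.3 and 11.1 FPKM in WT males to 5.93 and 6.05 FPKM in KO males.

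Of 16 other PPAR alpha target genes tested, 0 were higher and 2 lower, where 3.6% of all genes were called in either direction. Cidec, a lipid droplet protein, fell by 0.44 (SE 0.09, adjusted p = 0.0456 by limma). G0s2, an inhibitor of adipose triglyceride lipase, fell by 0.92 (SE 0.15, adjusted p = 0.0318 by limma). Against the same 3.6% of all genes, 1 of 20 regulators was higher and 0 were lower. This was Esrrb, an estrogen-related receptor, at 0.506 to 1.23 FPKM in WT and 1.39 to 1.86 FPKM in KO (log2 difference 1.06, SE 0.21, adjusted p = 0.0431). Ppara was not called (-0.31, SE 0.10, adjusted p = 0.14), nor were Pparg (0.04, SE 0.06) and Ppargc1a (0.49, SE 0.31). None of the 18 peroxisome biogenesis genes and none of the 8 genes of ketone metabolism passed. The lowest p among them belonged to Pex11g (-0.63, adjusted p = 0.0609) and Pex3 (-0.32, adjusted p = 0.107), and to Slc16a7, a monocarboxylate transporter (-0.70, adjusted p = 0.0505), and Bdh1 (2.08, adjusted p = 0.0673, at most 1.001 FPKM). Ucp1 had a log2 difference of 0.52 (SE 0.13, adjusted p = 0.0739). Of the 7 pathway genes called, 0 passed after median centring, Eci3, Cidec and G0s2 passed after quantile normalization, and Acad12, Eci3 and G0s2 passed without KO male 1.

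The receptor PPAR alpha binds, with its partner RXR, a DR1 element, a pair of AGGTCA motifs in the same direction with 1 base between them. Promoter windows of 250 bases before to 50 after the start were on hand in RefSeq for 28 of the 34 genes, and not for Cpt1b, Crat, Acot13, Acaa2, Decr1 and Hsd17b4. On either strand, AGGTCA was in the windows of 5 of 28 (17.9%), against 18.1% of 27025 symbols. These were Acadm, Acadvl, Cpt1a, Echs1 and Scp2. An exact DR1 was in 0 of 28, against 0.0481% of symbols. A DR1 with at most 2 mismatches in its AGGTCA copies, a search that overlaps the one for single AGGTCA motifs, was in 3 of 28 (10.7%), against 4.4% of symbols. The 3 matches are printed to show how far each departs from AGGTCA, with the paired motifs in capitals.
Slc25a20: AGGTGAaAGGTCG
Etfa: AGGGCAaAGGTAA
Echs1: AGGTCAcGGGTCC
The Slc25a20 match begins 6 bases after the start position and the Etfa and Echs1 matches begin 77 and 83 bases before it, with the Etfa match on the opposite strand. These are matches of letters in windows near the start and say nothing of binding.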

How the data were processed

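RNA-seq of brown adipose tissue was read from 9 per-library tables of FPKM. The FPKM values were made and deposited by the authors from paired-end 50-base reads. The submitters' notes name bcl2fastq 1.8.4, TopHat2 2.0.11, Bowtie and the build mm10. The study's methods credit the assembly of transcripts and the abundance estimates to Bowtie, and the annotation and use of strand are not given in the sources used here. No counts were used, and the depth of each library is unknown. Steps between low values put relative depth at 0.92 to 1.14 of WT female 1.

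Genes above 0 in all 9 libraries (14675) were put on the log2 scale with no pseudocount. limma 3.58.1 in R 4.3.3 fitted 1 mean per group (KO_F, KO_M, WT_F, WT_M, from the sample titles) with a mean-variance trend, and p-values were two-sided and adjusted over all genes tested, with a threshold of 0.05. The study's methods use an ordinary linear model with sex, genotype and their interaction, which was run as an alternative. The test was checked on simulated data. Replicates are separate animals by their titles, and replicate numbers follow accession order.

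All 34 members are accounted for. Full statistics are given for the 5 members with the lowest p averaged over the sexes and the 3 lowest in each other comparison. From each pathway list the genes called are named, or else the 2 with the lowest p, along with Ppara, Pparg, Ppargc1a, Ghrh, Ucp1 and the 3 most similar genes. A further gene that the rule names is not reported here. Members and lists were chosen with earlier results of these data known. Gene overlap was computed as the share of distinct 50-base stretches of GENCODE M21 transcripts found in another gene. Of the genes named as sharing stretches, Acot1 and Acaa1a are among the gene symbols of the files. Gm44502, Gm13910, Gm45233, Scp2-ps2 and Fabp3-ps1 are not. Protein sequences were not used here. Alternatives were a pseudocount of 0.1 or 1 FPKM, a mean of at least 1 FPKM, median centring, quantile normalization, the ordinary model, no trend, array weights, no interaction term, females alone, and each library left out.

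Summed levels over 10 macrophage, 10 endothelial and 10 fibroblast markers were 43.4 to 553, 146 to 231 and 133 to 224 FPKM in KO and 69.4 to 167, 188.5 to 246 and 169 to 306 FPKM in WT. The macrophage value of 553 FPKM is KO male 1, and the other KO libraries, at 43.4 to 54.8 FPKM, were below every WT library. Called lower in KO averaged over the sexes were 4 of 10 fibroblast markers, 1 of 10 macrophage markers and 1 of 11 white adipocyte markers. In that comparison 3.6% of all genes were called in either direction. Only 9 of the macrophage and 8 of the white adipocyte markers were above 0 in all libraries and so tested.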

Additional observations from a re-analysis of the deposited data

Results flagged for a closer look

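Of 68 groups examined (34 genes, in the 4 KO and in the 5 WT libraries), 2 held a library far from the others by Dixon's criterion, where chance gives about 1 in 20. Acsl5 was at 169 FPKM in KO male 2 and at 115 to 121 FPKM in the other KO libraries. Pex11a was at 17.3 FPKM in WT male 2 and at 13.8 to 14.7 FPKM in the other WT libraries.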

How the results depend on the processing

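The counts of members called moved off 0 under some settings. Apart from the ordinary linear model, the share of all genes called under each setting is not given here. Such a count therefore cannot be read as particular to the members. Averaged over the sexes 1 member, Acot11, passed with a mean of at least 1 FPKM or with no interaction term, and 0 to 2 passed with single libraries left out (Acot11 without KO male 1, Acot11 and Acsl5 without WT male 1). In females 1 passed with array weights or with females alone, again Acot11. The ordinary linear model at its own threshold, an unadjusted p under 0.01, gave 1 in females, 4 in males, 2 averaged and 6 between the sexes. Between the sexes 0 to 1 passed with single libraries left out, Fabp3 without KO male 2. For the interaction 0 passed under every setting run. The median difference in females was 0.26 with median centring, and in males it ran from -0.32 without KO male 2 to -0.15 without KO male 1. With median centring, 0 members were higher in every KO than in every WT library and 2 were lower in both KO males, against 21.7% of all genes. With single libraries left out these counts ran from 1 to 2 and from 19 to 30. The 30 was reached without KO male 2 (37.1% of all genes), and 20 were lower without KO male 1 (60.8% of all genes). The counts of members higher in KO females and lower in KO males, chosen after seeing the data, were 21 to 32 and 24 to 31. None of the 17 gene differences with full statistics changed sign. The causes were not tested. Where a group was left with 1 library, that library was assumed to vary like the other groups. No paired analysis was possible because the labels number each animal separately. With 2 or 3 animals a group and no counts, differences of the size seen for most members could not be told from the spread, and a p that misses the threshold does not show equal levels.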
